A study of Mus musculus with 12 samples.

Results

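Alveolar type 1 (AT1) cells were examined through 9 of their characteristic genes in lungs recovering from lipopolysaccharide (LPS) injury with or without IL-10 in B cells. The genes were Ager, Hopx, Pdpn, Rtkn2, Akap5, Clic5, Cldn18, Emp2 and Cav1, taken by gene name from a table of 55414 genes. All 9 were present, and all 9 passed the filter on low values. The rule used gene names and no measured value, but the genes were chosen with earlier results of these data known.

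AT1 cells are the thin, flat epithelial cells that cover most of the alveolar surface and form the gas exchange barrier with the capillaries beneath. Alveolar type 2 (AT2) cells make surfactant and, after injury, divide and turn into AT1 cells through a keratin-rich transitional state. AT1 cells are readily lost when the alveolus is injured, and markers of their membrane are used to follow the barrier.

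Whole-lung RNA was sequenced from 12 mice on the fourth day after LPS, the bacterial cell wall component used here to induce acute lung injury. In the 6 IL-10 B-KO mice, floxed Il10 alleles were deleted by Cre expressed from the B cell gene Mb1, also named Cd79a. The other 6 were the corresponding IL-10 B-WT controls, whose Cre and flox status was not given in the sources used here. The former are called knockout and the latter control lungs from here on. All 12 mice received LPS, and no uninjured lung and no other day was analysed here. Age and sex were not given in the sources used here. The mice were on a C57BL/6J background, and Mb1 directs Cre to the B lineage, so that AT1 cells were not the cells targeted. Since whole lung was sequenced, fewer AT1 cells and less RNA per AT1 cell cannot be told apart.

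The unit was TPM, a transcript abundance in which the reads of a gene are divided by its length and each library is scaled to a common total. The depth behind a TPM value is unknown, and the precision rests on the spread between lungs. Il10 itself was low, at 0 to 0.88 TPM in control and 0 to 0.58 TPM in knockout lungs (exact permutation test, two-sided, p = 0.745, n = 6), so that it did not separate the genotypes in whole lung. Of the libraries, 4 stood apart. Control replicate 5 had the lowest median over tested genes, 2.996 on the log2(TPM + 1) scale against 3.59 to 4.02 in the other 11 libraries. Control replicate 1 had a summed leukocyte and neutrophil marker level of 14345 TPM, against 933 to 6554 TPM in the other control lungs and 4468 to 15488 TPM in knockout lungs. Knockout replicate 2 had the lowest leukocyte sum of its genotype, 4468 TPM, and a capillary endothelial marker sum of 4820 TPM, against 2269 to 2811 TPM in the other knockout lungs. In control replicate 2 immunoglobulin genes took 15.4% of the TPM, against 0.248% to 2.19% in the other control lungs. In knockout lungs they took 0.00199% to 0.0647%, so that the genotypes did not overlap. The summed B cell markers reached 658 TPM in control replicate 2, against 59.2 to 101.9 TPM in the other control lungs. In knockout lungs that sum was 3.37 to 63.96 TPM (median 5.795). The highest was knockout replicate 2, which lay within the control range, and the next was knockout replicate 6 with 39.44 TPM. As a group, knockout lungs thus had less B cell RNA, and the part of this in the differences below was not tested. Each lung was left out in turn, and the values without the lungs that moved a result most are given beside it.

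The start regions of the genes on which the results turn are shown first, so that the letters around each start can be read beside the values. RefSeq promoters (GRCm38.p6, 250 bases before to 50 bases after the start) were matched by symbol for 8 of the 9 genes, in 11 windows, and Rtkn2 had no entry. Each is printed 5′ to 3′ on the strand of the gene. Capitals mark a match, on either strand, to 1 of 4 short motifs of factors known in alveolar epithelium or injury: GGAATG of TEAD factors, CAAGTG of NKX2-1, TGTTTAC of FOXA factors and TGANTCA of AP-1. The windows below are those of Ager (chr17:34597600-34597899, plus strand), Emp2 (chr16:10313919-10314218, minus strand), Pdpn (chr4:143299515-143299814, minus strand), 1 of 2 for Hopx (chr5:77095218-77095517, minus strand) and 1 of 2 for Cldn18 (chr9:99710014-99710313, minus strand).
Ager: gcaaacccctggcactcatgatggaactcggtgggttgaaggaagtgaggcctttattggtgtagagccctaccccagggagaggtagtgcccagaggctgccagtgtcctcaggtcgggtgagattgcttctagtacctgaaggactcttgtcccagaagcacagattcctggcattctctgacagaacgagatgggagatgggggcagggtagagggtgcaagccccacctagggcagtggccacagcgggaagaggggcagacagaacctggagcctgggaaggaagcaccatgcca
Emp2: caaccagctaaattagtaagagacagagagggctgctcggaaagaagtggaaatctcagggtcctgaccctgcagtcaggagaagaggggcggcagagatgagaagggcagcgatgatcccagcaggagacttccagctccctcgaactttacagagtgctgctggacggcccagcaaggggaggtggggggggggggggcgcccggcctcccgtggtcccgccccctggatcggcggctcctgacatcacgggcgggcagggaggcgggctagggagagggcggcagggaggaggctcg
Pdpn: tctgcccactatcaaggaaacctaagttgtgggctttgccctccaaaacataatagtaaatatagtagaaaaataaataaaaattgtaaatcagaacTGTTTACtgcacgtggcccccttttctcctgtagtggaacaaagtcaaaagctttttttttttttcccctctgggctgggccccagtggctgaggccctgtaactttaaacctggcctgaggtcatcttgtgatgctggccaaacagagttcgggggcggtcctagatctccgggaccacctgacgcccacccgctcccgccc
Hopx: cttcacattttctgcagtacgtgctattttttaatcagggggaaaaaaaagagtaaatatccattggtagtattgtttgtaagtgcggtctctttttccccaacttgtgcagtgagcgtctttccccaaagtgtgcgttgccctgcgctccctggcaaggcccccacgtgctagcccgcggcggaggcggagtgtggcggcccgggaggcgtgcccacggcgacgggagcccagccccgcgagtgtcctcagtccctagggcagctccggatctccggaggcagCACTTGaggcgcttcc
Cldn18: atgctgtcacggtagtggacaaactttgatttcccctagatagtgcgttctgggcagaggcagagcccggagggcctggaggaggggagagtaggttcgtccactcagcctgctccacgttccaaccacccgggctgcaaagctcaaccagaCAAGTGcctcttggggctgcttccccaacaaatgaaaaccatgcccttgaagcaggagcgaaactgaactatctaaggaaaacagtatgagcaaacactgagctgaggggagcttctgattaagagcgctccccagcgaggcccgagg

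The FOXA letters stood 153 bases before the Pdpn start, in 1 of 11 windows, and 3.65% of all 32851 promoter windows held them. The NKX2-1 letters stood 98 bases before the start of the Cldn18 window shown and, on the opposite strand, 35 bases after that of the Hopx window shown. The other windows of Cldn18 and Hopx, not shown, held none of the 4 motifs. The NKX2-1 letters were thus in 2 of 11 windows, and 13.6% of all windows held them. The TEAD letters were in 0 of 11 windows (14.7% of all windows) and the AP-1 letters in 0 of 11 (7.81% of all). Ager and Emp2 held none of the 4. A match is a string of letters and no evidence of binding. Emp2 had a GC content of 65.7%, Pdpn of 48.7%, and the median of all windows was 52.7%.

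The 9 genes spanned a wide range of abundance, on the TPM scale, which allows genes to be compared per length. Ager, which encodes the receptor for advanced glycation end products (RAGE), a receptor displayed in bulk on AT1 cells, had the highest mean in both genotypes. In control lungs it was followed by Cav1, Hopx, Emp2, Clic5, Cldn18, Pdpn, Rtkn2 and Akap5. The order of the means was the same in knockout lungs except that Akap5 came before Rtkn2. Neighbours in this order were not always apart in the single lungs. In control lungs, Hopx was above Emp2 in 4 of 6 lungs and Clic5 above Cldn18 in 4 of 6. In knockout lungs, Cldn18 was above Pdpn in 2 of 6 and Akap5 above Rtkn2 in 3 of 6, whereas Emp2 was above Clic5 in all 6 lungs of either genotype. By mean TPM, Ager ranked 106 and Cav1 162 among 15148 tested genes, and Akap5, the least abundant, ranked 4385. AT1 transcripts were present in every lung of both genotypes. Their summed TPM was between 2039 and 4565 (median 3241) in control and between 2205 and 3349 (median 2665) in knockout lungs, and the ranges overlapped.

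**Figure D1:**
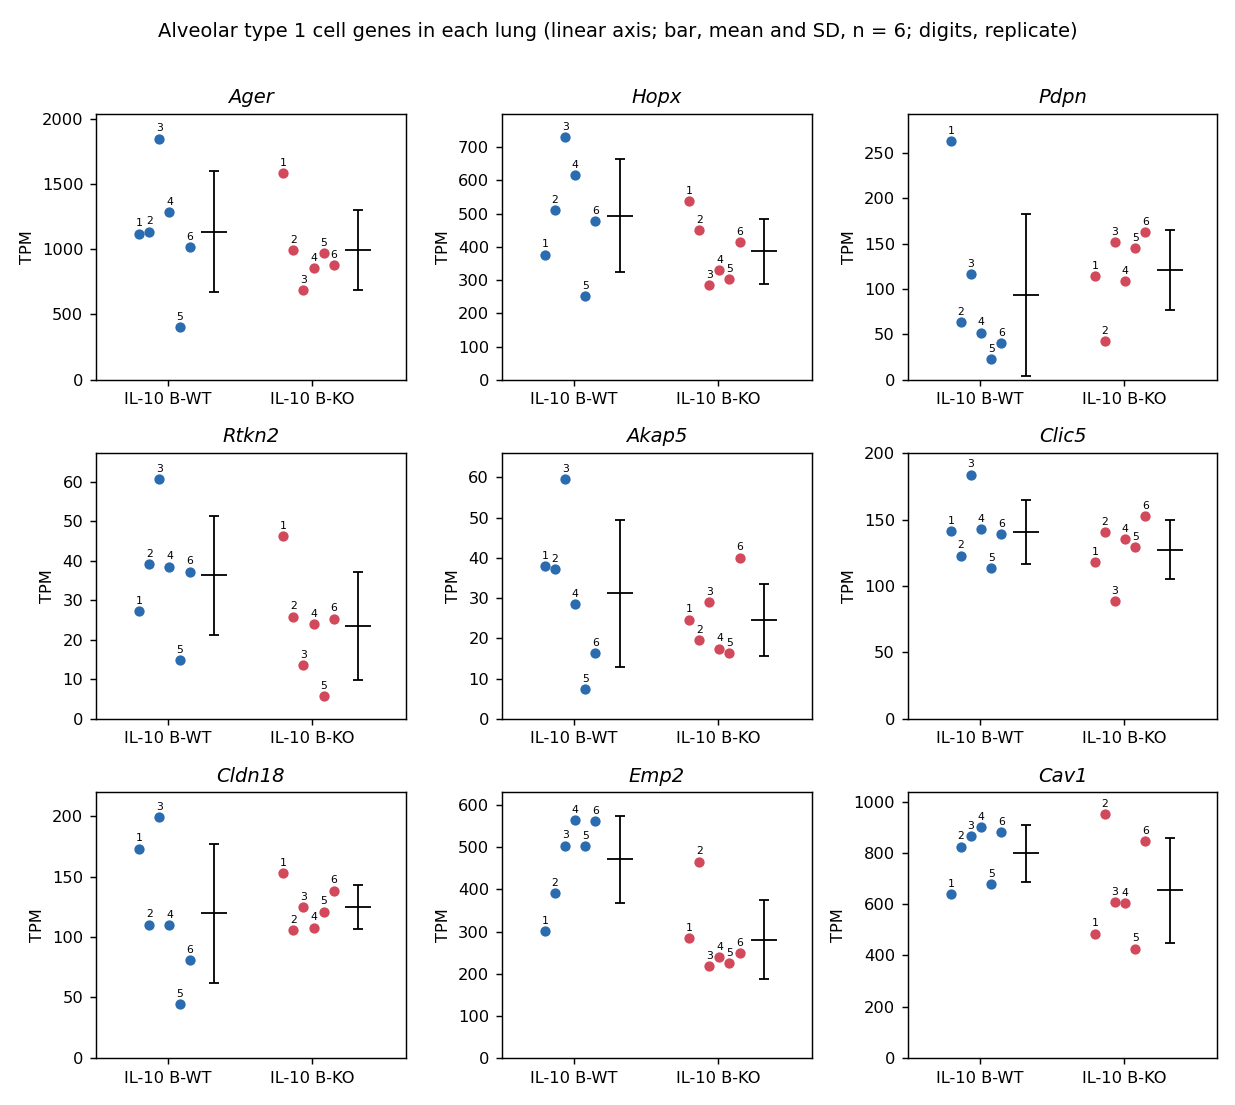
Level of each AT1 gene in each lung, in TPM on linear axes that start at 0. Each point is 1 lung, the digit is its replicate number, and the bar is the mean with its SD (n = 6 per genotype). The genotypes overlap for all 9 genes, and for Emp2 5 of 6 knockout lungs lie below every control lung.

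To ask whether loss of B cell IL-10 went with a different level of AT1 transcripts, the genotypes were compared with limma on log2(TPM + 1), over all 15148 genes with at least 1 TPM in at least 6 libraries. A gene was called where the log2 fold change was 1 or more in size and the p adjusted by Benjamini-Hochberg did not exceed 0.05. Of the 9 AT1 genes 0 were called, where 0.495% of all genes were (0.469% lower and 0.0264% higher in knockout lungs), and 0 passed the adjusted p without a minimum fold change (0.522% of all genes). At an unadjusted p of at most 0.05, 1 of 9 passed in limma, Emp2, which was lower, against 12.5% of all genes (5.71% lower and 6.83% higher). Without control replicate 5, 3 of 9 passed it (Hopx, Rtkn2 and Emp2, all lower, against 11.2% of all genes), and with array quality weights 4 of 9 did (those 3 and Cav1, all lower, against 24.9% of all genes). With either setting 8 of the 9 means were lower, and without control replicate 3 it was 5. The mean was lower in knockout lungs for 7 genes and higher for 2, and 36.8% of all genes had a lower mean. The median log2 fold change of the 9 was -0.15, beside 0.10 over all genes tested, and without control replicate 5 it was -0.38, beside -0.017. In 0 of 9 genes did the genotypes not overlap, against 1.02% of all genes. For 5 genes the 95% interval of the log2 fold change lay wholly between -1 and 1, so that a change of the called size was outside it, and for the other 4 it reached further.

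Emp2, a tetraspan membrane protein of AT1 cells and endothelium that links to caveolae and integrins, had the largest difference (ENSMUSG00000022505, chromosome 16, 10281749 to 10313968, minus strand). It was at 301.9, 390.8, 504.2, 564.3, 502.5 and 563.0 TPM in control replicates 1 to 6. In knockout replicates 1 to 6 it was at 285.3, 466.0, 218.2, 239.5, 224.5 and 249.6 TPM. All but knockout replicate 2 were below every control lung, and all 6 were below the control median. The means were 471 ± 104 and 280.5 ± 93.9 TPM (SD, n = 6), and the log2 fold change was -0.77 (SE 0.22, 95% interval -1.24 to -0.29). The exact permutation test on this gene alone gave p = 0.00866, two-sided, where the smallest p that 6 lungs against 6 allow is 0.00216. After adjustment over all genes the difference did not pass (limma, adjusted p = 0.190). It did pass the adjusted p, still with a log2 fold change short of 1, without knockout replicate 2 (limma, -0.92, adjusted p = 0.0440, 0.833% of all genes passing) and without control replicate 1 (-0.89, adjusted p = 0.0390 in limma, 4.87% passing). With array quality weights it also passed (adjusted p = 0.0142 in limma, 4.42% of all genes passing). Over the 12 fits with 1 lung left out the adjusted p lay between 0.0390 and 0.463 in limma. All 10 leukocyte and neutrophil markers had a higher mean in knockout lungs, and all 12 capillary endothelial markers a lower one, with summed levels of 2211 to 4848 TPM in control and 2269 to 4820 TPM in knockout lungs. Their part in the Emp2 difference was not tested.

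Cav1, the structural protein of caveolae, the membrane pits found in AT1 and endothelial cells, had the smallest spread of the 9 in control lungs (ENSMUSG00000007655, chromosome 6, 17306335 to 17341452, plus strand). It was at 639.9, 823.8, 864.1, 900.9, 678.3 and 880.2 TPM in control replicates 1 to 6 and at 484.4, 950.9, 606.5, 603.7, 426.4 and 845.9 TPM in knockout replicates 1 to 6. Of the knockout lungs, 4 were below every control lung and 1, replicate 2, was above every one. The log2 fold change was -0.33 (SE 0.21, 95% interval -0.79 to 0.12) with an adjusted p of 0.503 in limma and p = 0.128 in the exact permutation test. Single lungs moved it both ways. Without knockout replicate 2 it was -0.45 (exact permutation p = 0.0303), and without knockout replicate 5 it was -0.22 (exact permutation p = 0.262), with adjusted p of 0.250 and 0.791 in limma. Gm15581 overlaps Cav1 on the opposite strand, and strand in the counting was not given in the sources used here. Of 6 caveola components, Cav1 among them, 5 had a lower mean and 1 passed an unadjusted p of 0.05 in limma, Cavin2, with a log2 fold change of -0.83.

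Ager varied among lungs more than between genotypes (ENSMUSG00000015452, chromosome 17, 34597862 to 34600936, plus strand). Control replicates 1 to 6 were at 1119, 1135, 1847, 1285, 402.3 and 1015 TPM. Knockout replicates 1 to 6 were at 1584, 990.9, 687.9, 856.9, 969.4 and 876.5 TPM. The highest and the lowest lung were both control, and the knockout lungs lay between them. The log2 fold change was -0.11 (SE 0.32, 95% interval -0.79 to 0.58, limma adjusted p = 0.896, exact permutation p = 0.766), and its sign turned to 0.059 without control replicate 3. Without control replicate 5 it was -0.38 (exact permutation p = 0.130). RAGE binds S100 proteins and the nuclear protein HMGB1. Of 6 listed ligands and adaptors, 2 passed an unadjusted p of 0.05 in limma, both higher, the neutrophil proteins S100a8 (log2 fold change 1.94) and S100a9 (1.87), which are also on the leukocyte list, and 0 passed the adjusted p. Without control replicate 1, 4 of the 6 passed the unadjusted p and 2 were called, where 576 of all 14943 genes were.

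Pdpn, the mucin-like surface protein of the AT1 apical membrane that binds CLEC-2 on platelets, was the most uneven gene of the 9 (ENSMUSG00000028583, chromosome 4, 143267431 to 143299564, minus strand). It was at 263.1, 63.5, 116.2, 51.8, 23.1 and 40.2 TPM in control replicates 1 to 6 and at 114.6, 42.5, 151.2, 108.7, 144.9 and 162.7 TPM in knockout replicates 1 to 6. Control replicate 1 was the highest lung of all and replicate 5 the lowest, a ratio of 11.4. The log2 fold change was 0.71 (SE 0.51, 95% interval -0.38 to 1.80, limma adjusted p = 0.543, exact permutation p = 0.234). Without control replicate 1 it was 1.10, with an exact permutation p of 0.0498 and an adjusted p of 0.120 in limma. Without control replicate 5 it was 0.41, with an exact permutation p of 0.457 and an adjusted p of 0.736 in limma. Control replicate 1 also had the highest leukocyte marker sum of its genotype and control replicate 5 the lowest. Podoplanin is made by some macrophages, lymphatic vessels and mesothelium as well as AT1 cells. Mesothelial markers (4 of 5 tested) had a median log2 fold change of 1.16, lymphatic markers (5 of 6 tested) -0.13 and leukocyte markers 1.60. Their part in the Pdpn values was not tested. Of 6 podoplanin partners, 5 had a higher mean and 1, the hyaluronan receptor Cd44 (1.02), passed an unadjusted p of 0.05 in limma.

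Hopx encodes a homeodomain protein without DNA binding that marks the AT1 lineage (ENSMUSG00000059325, chromosome 5, 77086988 to 77115121, minus strand). It was at 252.4, 494 and 730.1 TPM as the lowest, median and highest of 6 control lungs, and at 284.5, 372 and 538.6 TPM in knockout lungs. The genotypes overlapped, with a log2 fold change of -0.31 (SE 0.25, 95% interval -0.86 to 0.24, limma adjusted p = 0.595). It was -0.49 without control replicate 5 (exact permutation p = 0.0541) and -0.18 without control replicate 3 (exact permutation p = 0.478). Rtkn2, used as an AT1 marker (ENSMUSG00000037846, chromosome 10, 67979570 to 68059740, plus strand), was at 14.9, 37.9 and 60.7 TPM in control and 5.81, 24.7 and 46.2 TPM in knockout lungs. Its log2 fold change was -0.72, with an SE of 0.42 and an interval of -1.63 to 0.19 (limma adjusted p = 0.477), and it was -0.40 without knockout replicate 5, the lung with the lowest value. Hopx and Rtkn2 overlap antisense genes, Hopxos and Gm16212. Of 9 regulators of AT1 fate, Hopx included, 5 had a lower and 4 a higher mean, and 0 passed an unadjusted p of 0.05 in limma, where 3 passed without control replicate 5, all lower. YAP and TAZ drive flattening of AT1 cells with TEAD factors, and 3 of 8 tested YAP-TAZ targets passed an unadjusted p of 0.05 in limma, all lower. These were Ajuba (log2 fold change -0.77), Amotl2 (-0.63) and Lats2 (-0.37). Of the 8, 2 had a higher mean, Ankrd1, whose log2 fold change of 0.83 was the largest of the list in size, and Ccn1 (0.31), and the smallest adjusted p of the list was 0.0833 in limma.

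Clic5, a chloride channel family protein at the cell cortex, was the most even of the 9 across all lungs (ENSMUSG00000023959, chromosome 17, 44188584 to 44280172, plus strand). It ranged from 113.7 to 184.1 TPM (median 140.1) in control and from 88.7 to 152.7 TPM (median 132.6) in knockout lungs. Its log2 fold change was -0.14 with the narrowest interval, -0.49 to 0.21 (SE 0.16, limma adjusted p = 0.703), and it was -0.044 without knockout replicate 3. Akap5, a scaffold that tethers protein kinase A (ENSMUSG00000021057, chromosome 12, 76324891 to 76334153, plus strand), ranged from 7.46 to 59.6 TPM in control and from 16.4 to 40.0 TPM in knockout lungs. Its log2 fold change was -0.15 (SE 0.41, limma adjusted p = 0.885) and 0.081 without control replicate 3 and -0.49 without control replicate 5 (exact permutation p = 0.197).

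Cldn18, the tight junction claudin of alveolar epithelium (ENSMUSG00000032473, chromosome 9, 99689461 to 99717267, minus strand), ranged from 44.2 to 199.6 TPM in control and from 105.6 to 153.0 TPM in knockout lungs. The knockout lungs all lay within the control range. The log2 fold change was 0.21 (SE 0.30, limma adjusted p = 0.769), and it was -0.041 without control replicate 5. AT2 cells also express Cldn18, and Gm16004 overlaps it on the opposite strand. Of 10 tight junction genes, 1 passed an unadjusted p of 0.05 in limma with a lower mean, the scaffold Tjp1 (-0.40), and 1 with a higher mean, the injury-associated claudin Cldn4 (1.24).

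**Figure D2:**
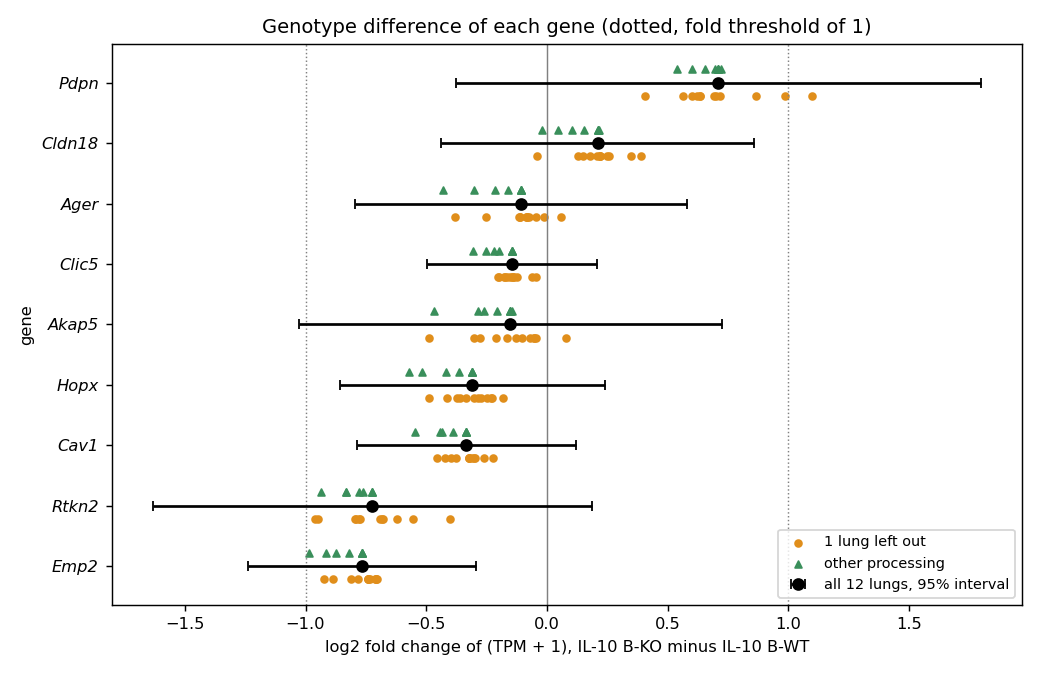
Log2 fold change of (TPM + 1), knockout minus control, for each AT1 gene. Black points with bars are the fit with all 12 lungs and its 95% interval, orange points are fits with 1 lung left out and green triangles are fits with other processing; dotted lines mark the fold threshold. Only the Emp2 interval lies off 0 (-1.24 to -0.29), and leaving out a lung turns the sign of Ager, Akap5 and Cldn18.

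Other AT1 genes were listed to see whether the 9 were representative. Of 24, 13 had a lower and 11 a higher mean, with a median log2 fold change of -0.044, and 0 passed the adjusted p in limma. The water channel Aqp5 was at 229.9 ± 114 TPM in control and 286.4 ± 74.6 TPM in knockout lungs (SD, n = 6). Ndnf, at 1.13, had the largest log2 fold change and was the only one of the 24 to pass an unadjusted p of 0.05 in limma. AT2 markers had a median log2 fold change of 0.60, with 6 of 12 past an unadjusted p of 0.05 in limma, all higher, led by the surfactant protein Sftpd (1.54). Transitional alveolar epithelial genes had a median of 0.87, with 8 of 12 past it, all higher, led by the galectin Lgals3 (1.51). The summed AT2 markers were at 3774 TPM in control replicate 5, against 9699 to 18498 TPM in the other control and 12907 to 22824 TPM in the knockout lungs. Without that lung the AT2 median was 0.35, with 3 of 12 past the unadjusted p, and the transitional median was 0.73, with 4 of 12 past it. The other AT1 genes then had a median of -0.22, with 6 of 24 past it, all lower. Both lists also hold genes that leukocytes express, such as Cd36 (log2 fold change -0.13 with all 12 lungs) and Lgals3 (1.51). Cd36 was the only 1 of the 12 AT2 markers with a lower mean. The leukocyte list had a median of 1.60, and the part of leukocyte RNA in the 2 lists was not tested. The 12 capillary endothelial markers all had a lower mean, with a median of -0.39 and 3 past an unadjusted p of 0.05 in limma, and with -0.43 and 0 without control replicate 5. Without control replicate 1 the medians were 0.71 for AT2, 1.14 for transitional, -0.57 for capillary and 0.040 for the other AT1 genes. Of the first 3 lists 8, 9 and 8 of 12 then passed the unadjusted p (3746 of all 14943 genes). Called were 1 AT2, 4 transitional, 2 capillary and 1 other AT1 gene and 7 of 10 leukocyte markers (576 of 14943 genes). With all 12 lungs pan-epithelial markers had a median of 0.27, airway markers of -0.83 and fibroblast markers of -0.26, and no gene of these lists passed the adjusted p. B cell markers had a median of -2.87. In the main fit with all 12 lungs they held the only called gene of any list, Cd79a (log2 fold change -4.16, limma adjusted p = 0.0222). Cd79a is Mb1, the gene from which Cre was expressed in knockout mice, and the part of this in its difference was not tested. Cd79a did not pass where any 1 of control replicates 4 and 5 and knockout replicates 1, 3 and 5 was left out (adjusted p of up to 0.0670 in limma). It also did not pass without the filter on low values (limma adjusted p = 0.0999). With array quality weights 1 AT2, 2 fibroblast and 2 leukocyte markers and 1 caveola component were called as well, where 318 of 15148 genes were. The difference between the AT1 genes and these lists was not tested.

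**Figure D3:**
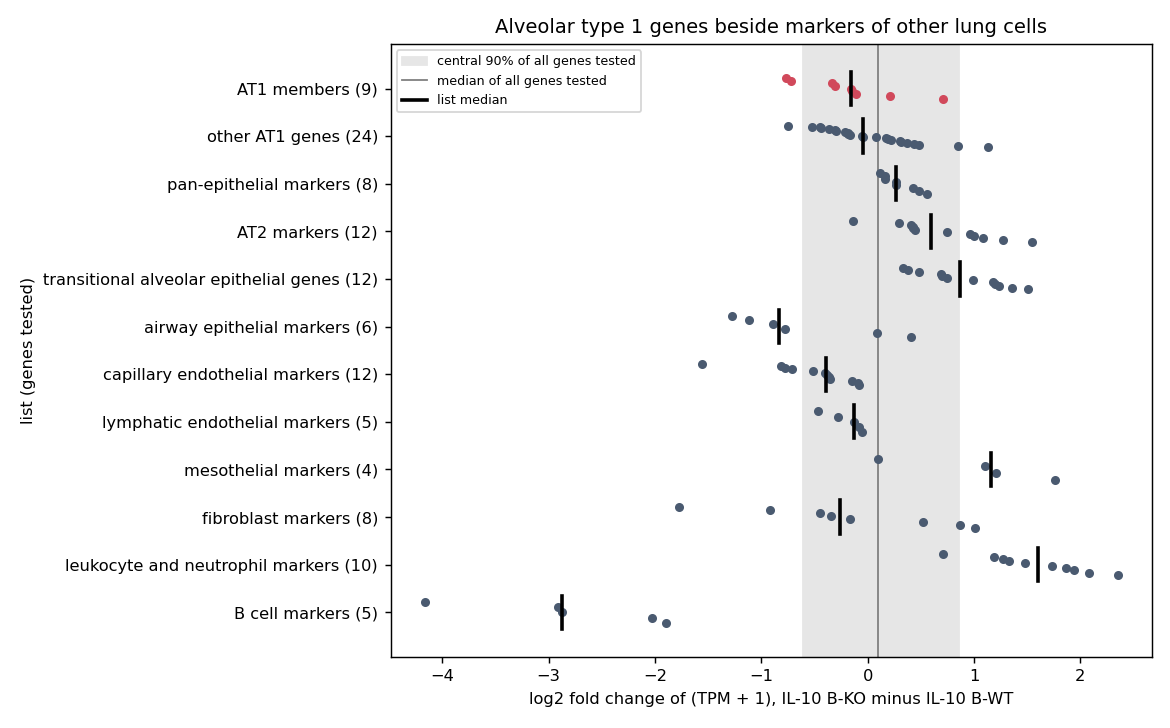
Log2 fold change of (TPM + 1), knockout minus control, for the AT1 genes (red) and for genes of other lists (slate), with the number of tested genes in brackets. Each point is a gene, the black bar is the list median, the grey line is the median of all genes tested (0.10) and the grey band holds the central 90% of them. The AT1 genes lie on both sides of 0, while AT2, transitional and leukocyte genes lie mostly above it.

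Ratios within a lung remove the common scale of a library, and 4 were compared. The ratio of Ager to Sftpc, the surfactant protein C gene of AT2 cells, relates AT1 to AT2 transcripts. Its log2 mean was -3.01 ± 0.29 in control and -3.57 ± 0.33 in knockout lungs (SD, n = 6), 1.47-fold lower. Of the knockout lungs, 3 were below every control lung and the others overlapped. The exact permutation test gave p = 0.0152, two-sided, and 0.0606 after Benjamini-Hochberg adjustment over the 4 ratios, so that the difference did not pass the correction. It held its direction in all 12 sets with 1 lung left out, between -0.63 and -0.46. The log2 ratio of Pdpn to Ager was 0.82 higher in knockout lungs (exact permutation p = 0.162, adjusted 0.325), and 1.18 higher without control replicate 1 (exact permutation p = 0.0303, unadjusted). The log2 ratio of Cav1 to Ager differed by -0.23 (exact permutation p = 0.578) and that of Cav1 to the endothelial gene Pecam1 by -0.19 (exact permutation p = 0.312). The latter was -0.073 without knockout replicate 5 and the former 0.00117 without control replicate 5.

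**Figure D4:**
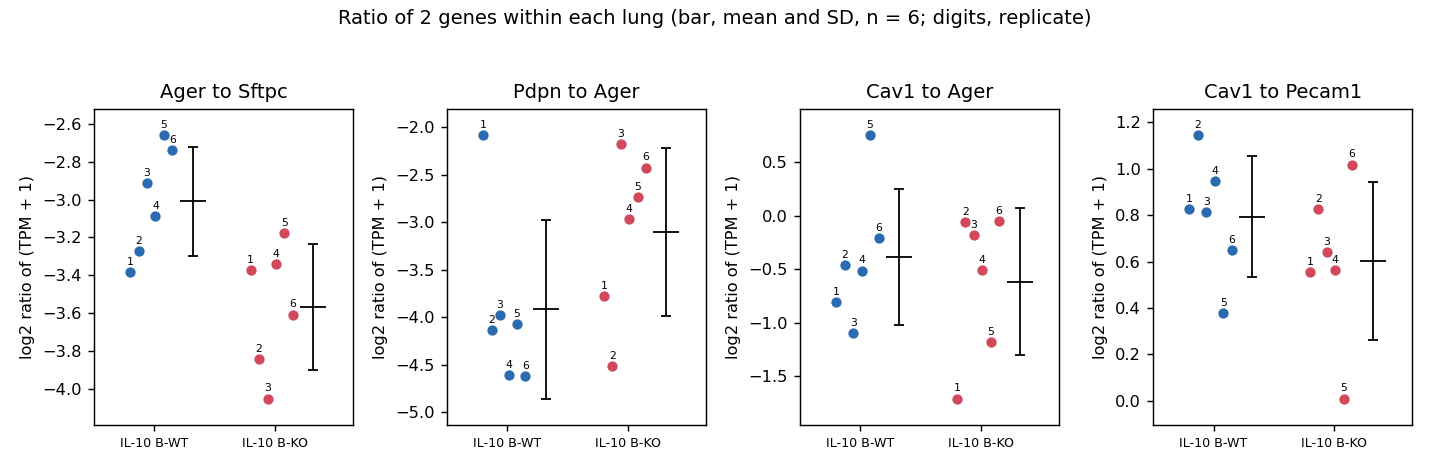
Log2 ratio of (TPM + 1) of 2 genes within each lung, on axes that do not start at 0. Each point is a lung with its replicate number, and the bar is the mean with its SD (n = 6). For Ager to Sftpc the knockout lungs lie lower, with 3 of 6 below every control lung, and for Pdpn to Ager control replicate 1 lies far above the rest of its genotype.

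Finally, the lungs of 1 genotype were compared with each other, to see which AT1 genes varied together. Deviations of log2(TPM + 1) from the genotype mean were correlated over 12 lungs for all 36 pairs of genes, with 100000 resamples within genotype. The correlation was positive in 31 pairs, with a median Pearson r of 0.43, and 4 pairs passed an adjusted p of 0.05 (12 unadjusted). Because control replicate 5 was low in most of these genes, the same was computed over the other 11 lungs. Then 27 pairs were positive, the median r was 0.31 and 2 pairs passed, both among the 4.

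Those 2 pairs joined Hopx to Rtkn2 and Ager to Hopx. For Hopx and Rtkn2, r was 0.83 and Spearman's rho 0.85 (permutation p = 0.00011 and 0.00013, adjusted 0.00396 and 0.00468), and r was 0.77 without the 2 lungs farthest from the median of Hopx and 0.79 without control replicate 5 (permutation p adjusted 0.0488). For Ager and Hopx, r was 0.90 and rho 0.80 (permutation p = 0.00035 and 0.0022, adjusted 0.0063 and 0.0270), with 0.75 without the 2 farthest lungs and 0.81 without control replicate 5 (permutation p adjusted 0.0488). Both pairs were positive within each genotype, at r 0.97 and 0.82 for Hopx and Rtkn2 and 0.93 and 0.82 for Ager and Hopx in control and knockout lungs. Akap5 and Cldn18 had an r of 0.91 and a rho of 0.88 over 12 lungs (permutation p = 0.00068 and 0.002, adjusted 0.00816 and 0.0270), and r was 0.71 without the 2 farthest lungs. Without control replicate 5 their r was 0.80 and the adjusted permutation p 0.0761, so that the pair no longer passed. Ager and Cldn18, with an r of 0.83 and a rho of 0.69 (permutation p = 0.0053 and 0.017, adjusted 0.0474 and 0.103), rested on control replicates 5 and 3, without which r was 0.35.

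Pdpn and Emp2 went in opposite directions from lung to lung. Their r was -0.77 and rho -0.62 (permutation p = 0.0092 and 0.036, adjusted 0.0537 and 0.164), which did not pass the correction over 12 lungs, with r of -0.73 in control and -0.94 in knockout lungs. It was -0.78 without the 2 farthest lungs and -0.85 without control replicate 5. With each library centred on its median it was -0.83 and passed (permutation p adjusted 0.0409), and it was -0.60 there without the 2 farthest lungs. Centring also brought Emp2 and Cav1 past the correction (r 0.82, permutation p adjusted 0.0130, against r 0.62 and 0.136 without centring), while Ager and Cldn18 no longer passed (permutation p adjusted 0.0781). Over all 36 pairs r ranged from -0.77 to 0.91.

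**Figure D5:**
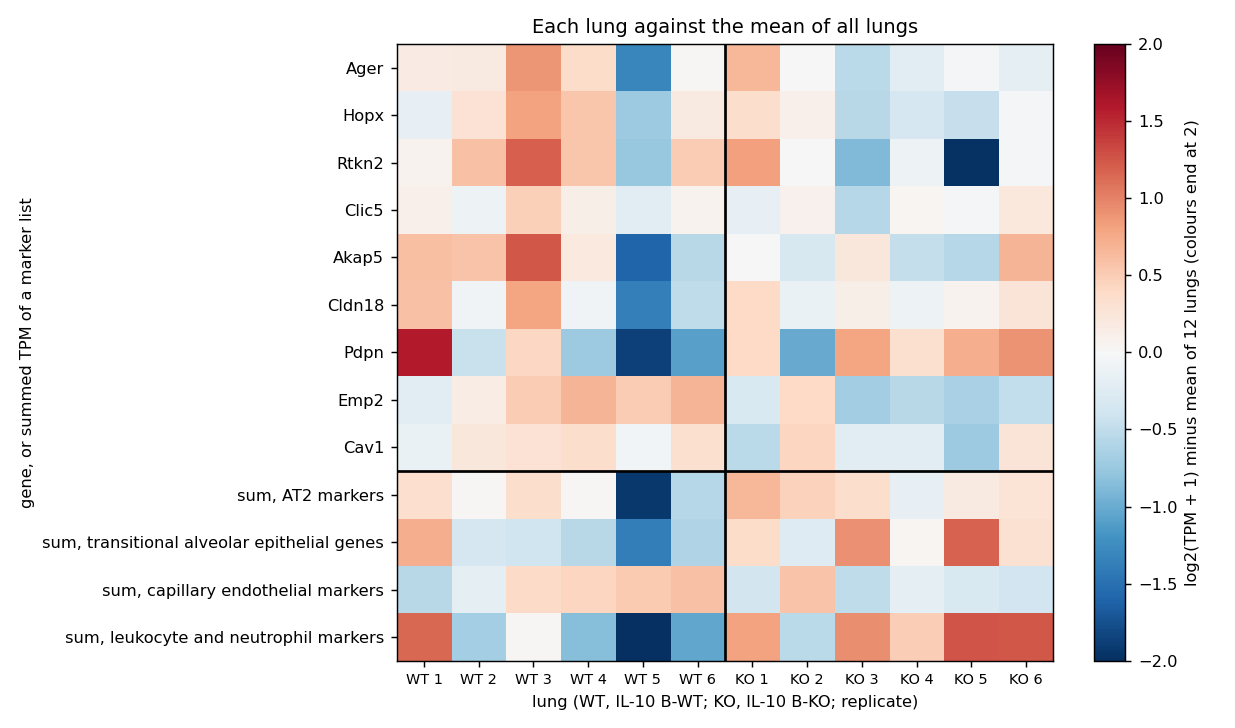
Each lung against the mean of all 12, as the difference in log2(TPM + 1), with red above and blue below the mean and colours ending at 2. Rows above the line are the AT1 genes and rows below it are summed TPM of marker lists. Control replicate 5 is blue in most AT1 genes but not in Emp2, and Pdpn is high in control replicate 1, where the leukocyte sum of 14345 TPM is also high.

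The genes outside the 9 whose deviations were most like those of Ager over the 12 lungs were Scx (Pearson r 0.96), Magef1 (0.94), Gcat (0.94), Exosc7 (0.93) and Mal2 (0.93). For Pdpn and Emp2 the same list was drawn up after their values were seen. The genes most like Pdpn were Tnfsf14 (0.99), Vhl (0.99), Nfam1 (0.99), Myo1f (0.98) and Tpd52 (0.98), and those most like Emp2 were Gm50462, Myzap and Elovl5 (0.96 each), Ghr and Nhlrc2 (0.95 each). The points of each correlation share library scaling, and with each library centred on its median the r of Magef1 to Ager was 0.65 and that of Vhl to Pdpn 0.73. In the gene annotation deposited with the table, 5 of the 9 genes (Ager, Pdpn, Clic5, Emp2 and Cav1) carried the term apical plasma membrane, as did 1.51% of the tested genes. Also looked up were plasma membrane (5 of 9, 13.9% of tested genes), basolateral plasma membrane (3 of 9, 0.904%) and caveola (0 of 9, 0.422%). Cav1 carried neither plasma membrane nor caveola, so the annotation is incomplete.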

How the data were processed

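Whole-lung RNA-seq of 6 control (IL-10 B-WT) and 6 knockout (IL-10 B-KO) mice was used. The authors deposited 1 table of TPM, which the submitters' processing notes connect with fastp, HISAT, RSEM and GRCm38.p5; versions and annotation release were not given in the sources used here. TPM keep no depth, so no count model was fitted. The table held 0 unused per-sample columns. Coordinates came from GENCODE M21 (GRCm38), where 52081 gene IDs were found.

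Values were fitted as log2(TPM + 1), which understates changes of low genes, with limma 3.58.1 in R 4.3.3 (lmFit, eBayes with a trend, a single genotype term) over 15148 genes that reached 1 TPM in at least 6 libraries, using Benjamini-Hochberg adjustment. Single genes and ratios were compared by exact permutation (Python 3.11.15, NumPy 2.4.6, SciPy 1.17.1). On simulated data of 15148 genes for this comparison, limma called 89 of 100 genes with a log2 change of 2, 100 of 100 with a log2 change of 3, and 7 genes without a change. Genes were drawn independently of each other there, unlike genes that vary together among real lungs. No log2 change smaller than 2 was simulated, so the share called at the smaller sizes seen for the AT1 genes is not known.

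The 9 genes, the other lists and the motifs were chosen with earlier results of these data known. Named from each list were any called gene and up to the 3 largest log2 fold changes, and for Ager the 5 genes of highest r, besides the genes of the ratios; Aqp5 was added after its values were seen. Correlations without control replicate 5, paired sign flips of the ratios and lists without single lungs were added after seeing the data. Alternatives were other pseudocounts, filters and scalings, array weights, a replicate block and each lung left out.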

Additional observations from a re-analysis of the deposited data

Results flagged for a closer look

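The 26 sets of 6 lungs were each gene or ratio in each genotype, on the scale of log2(TPM + 1) or of the log2 ratio. For an extreme lung, the gap to its nearest neighbour was divided by the whole range of the set. In 3 sets this was above Dixon's 95% critical value for 6, and chance gives about 1 in 20. Pdpn in knockout replicate 2 was the lowest of its genotype, with a gap over range of 0.698. Emp2 in the same lung was the highest of its genotype, with 0.647. The log2 ratio of Pdpn to Ager in control replicate 1 was the highest of its genotype, with 0.746. Knockout replicate 2 had the lowest leukocyte marker sum of its genotype and control replicate 1 the highest of its own, and their part in these values was not tested.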

How the results depend on the processing

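The number of AT1 genes called was 0 under every processing alternative and with each lung left out, and 1 where only an unadjusted p of 0.05 was asked. Without control replicate 3, the log2 fold change of Ager turned to 0.059 and that of Akap5 to 0.081, and Cldn18 turned to -0.021 with array quality weights and to -0.041 after leaving out control replicate 5; with 1 lung left out the ranges were -0.38 to 0.059, -0.49 to 0.081 and -0.041 to 0.39. The log2 ratio of Cav1 to Ager lay between -0.37 and 0.00117, the highest without control replicate 5, and that of Pdpn to Ager between 0.63 and 1.18. The log2 ratio of Cav1 to Pecam1 lay between -0.27 and -0.073. Pairs of AT1 genes past an adjusted p of 0.05 numbered 4, 5 with a pseudocount of 0.1, 5 with median centring (3 of them among the 4), and 2 without control replicate 5; the cause was not tested. Emp2 passed the adjusted p with array quality weights (limma, log2 fold change -0.91, adjusted p = 0.0142, 4.42% of all genes passing).

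Whether replicate numbers pair the lungs was not given in the sources used here. Same-numbered lungs correlated in their deviations at r -0.29 to 0.05. Lungs of different number were not set beside them, so these values cannot decide it. With the replicate block, limma called 45 genes in place of 75, Emp2 had an adjusted p of 0.422, and Ager to Sftpc kept -0.56 with p = 0.0625 by exact sign flips. The number of genes called over the whole table was 75, and 6 without a filter, 27 without immunoglobulin genes, 39 after quantile normalization, 36 after median centring, 318 with array quality weights and 15 to 576 with 1 lung left out (576 without control replicate 1). Quantile normalization and median centring moved the median of all genes from 0.10 to 0.0054 and -0.0085. Depth is unknown, so detection limits cannot be given.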
